A study of Homo sapiens with 22 samples.

Results

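Accessible chromatin was described at 10 genes grouped here as growth factor and niche signalling genes: HGF and its receptor MET, TGFA, ERBB4, CXCL12 and its receptor CXCR4, DKK1, CLEC11A, VCAN and PTP4A3. The genes were chosen by name, out of 19974 protein-coding genes on the autosomes and X. For each, the ATAC-seq peaks called within the gene body and 20 kb either side (hg38), called its window here, were taken in all 22 libraries. Overlapping peaks of different libraries were merged into regions, and the 10 windows held 96 of 96166 regions. All 10 genes and 67 of the 96 regions had a peak in at least 2 libraries and were tested.

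ATAC-seq inserts adapters with the Tn5 transposase where chromatin is accessible, and a peak is a stretch with more insertions than the background. KMS11 (12 libraries) and KMS34 (10 libraries) are cell lines from patients with multiple myeloma, and the labels give the genotype t(4;14), a translocation that drives the histone methyltransferase gene NSD2 from the immunoglobulin heavy chain locus. The series asked how degrading NSD2 with the compound NSD2LDD changes accessible chromatin. There were 11 groups of 2 libraries: untreated KMS11, KMS11 TKO and KMS34, all sampled on day 0, and each line after 4 and after 10 days of NSD2LDD or of its vehicle DMSO. TKO is a name used for KMS11 cells whose translocated NSD2 allele was disrupted. The labels do not spell it out, do not give these libraries the genotype t(4;14), and do not say whether they come from 1 clone. The title of 1 KMS34 NSD2LDD library lacks its day, which its library name and time point give as day 4. The sources used here do not state the concentration of NSD2LDD. Nothing says whether the duplicates were separate cultures, so the spread that p-values rest on, which is only that among these samples, may be technical.

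The lists held 24979 to 52518 peaks (median 37598.5). Control libraries, here those at day 0 and in DMSO without TKO, had 34398 ± 4901 peaks in KMS11 and 43262 ± 6831 in KMS34 (SD, n = 6 each), and the shortest list was the second KMS11 day 0 library. The lists hold no read counts, so depth is unknown, and closed chromatin cannot be told from sequencing too shallow for a call. In bulk libraries, fewer cells with an open site and less opening per cell cannot be told apart either. A window from 250 bases before to 50 after each listed gene start was used to check the cell type. All 6 plasma cell markers that have such a window (SDC1, IRF4, PRDM1, XBP1, CD38 and MZB1) had a peak in it in 22 of 22 libraries. No library had one at CD3D, CD2, GZMB, CD14, CSF1R, FCGR1A, S100A8, EPOR or KLF1, whereas BCL6, CD8A and CEBPA had one in all 22, BCL11B in 21, and the stromal gene PDGFRB in 8 KMS11 libraries.

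Stromal cells of the bone marrow secrete CXCL12, which retains plasma cells through CXCR4, and HGF acts through the receptor tyrosine kinase MET on growth, survival and migration. DKK1 is a secreted Wnt antagonist that myeloma cells use to block bone formation, while CLEC11A (osteolectin) is a secreted factor that promotes it. Open chromatin at a start is usual for active or poised genes, but it measures neither RNA nor protein.

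The sequences before 6 gene starts are shown because called peaks at these starts separated the genes into those open in KMS34 only (HGF, ERBB4 and CXCL12), those open in every library (DKK1 and TGFA) and one with no peak at its start (CLEC11A). Each is the 250 bases before the listed start on the gene's strand, 5′ to 3′, from RefSeq (GRCh38.p14). Capitals mark TATAAA, known as the TATA box, GGGCGG, known as the GC box, and TGANTCA, the motif of AP-1 factors, searched on both strands. The positions are chr7:81770048-81770297 (minus) for HGF, chr2:212538803-212539052 (minus) for ERBB4, chr10:44385098-44385347 (minus) for CXCL12, chr10:52314031-52314280 (plus) for DKK1, chr2:70553827-70554076 (minus) for the first of the TGFA starts and chr19:50723114-50723363 (plus) for CLEC11A.
HGF: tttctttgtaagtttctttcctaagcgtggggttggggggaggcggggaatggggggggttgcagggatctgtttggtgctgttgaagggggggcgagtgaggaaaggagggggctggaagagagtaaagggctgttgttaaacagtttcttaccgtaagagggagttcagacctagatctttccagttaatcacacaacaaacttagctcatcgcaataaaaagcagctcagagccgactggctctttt
ERBB4: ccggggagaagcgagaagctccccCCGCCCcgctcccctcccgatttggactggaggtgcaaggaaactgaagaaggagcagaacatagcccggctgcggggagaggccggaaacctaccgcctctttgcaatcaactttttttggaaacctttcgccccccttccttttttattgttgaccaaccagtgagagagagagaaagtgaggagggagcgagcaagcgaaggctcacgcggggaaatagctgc
CXCL12: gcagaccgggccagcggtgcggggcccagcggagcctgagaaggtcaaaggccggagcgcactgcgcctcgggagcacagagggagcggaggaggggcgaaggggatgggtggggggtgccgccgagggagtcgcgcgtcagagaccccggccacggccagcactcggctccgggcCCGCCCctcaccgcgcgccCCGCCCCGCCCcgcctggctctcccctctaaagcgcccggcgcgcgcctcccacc
DKK1: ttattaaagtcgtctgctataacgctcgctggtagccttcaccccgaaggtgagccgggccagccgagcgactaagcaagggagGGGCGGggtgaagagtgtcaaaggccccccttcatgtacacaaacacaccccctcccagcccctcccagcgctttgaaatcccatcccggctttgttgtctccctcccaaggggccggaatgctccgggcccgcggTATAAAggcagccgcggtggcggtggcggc
TGFA: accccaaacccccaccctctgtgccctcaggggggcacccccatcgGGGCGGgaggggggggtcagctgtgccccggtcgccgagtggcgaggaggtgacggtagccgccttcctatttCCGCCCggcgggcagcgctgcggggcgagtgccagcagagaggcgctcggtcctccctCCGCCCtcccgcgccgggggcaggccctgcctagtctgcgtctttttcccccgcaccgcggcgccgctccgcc
CLEC11A: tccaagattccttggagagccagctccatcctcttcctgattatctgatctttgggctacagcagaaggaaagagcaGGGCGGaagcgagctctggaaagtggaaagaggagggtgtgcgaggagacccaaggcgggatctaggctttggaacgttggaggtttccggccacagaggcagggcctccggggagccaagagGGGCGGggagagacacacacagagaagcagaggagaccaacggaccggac

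The 3 starts open in KMS34 only spanned a wide range of base composition. G and C made up 50.0% of the bases before HGF (6 CpG), 57.2% before ERBB4 (14 CpG) and 78.0% before CXCL12 (31 CpG), where the quartiles over 35116 RefSeq upstream sequences were 46.4%, 58.0% and 68.0%. The HGF sequence held none of the 3 motifs. The GC box was present 1 time in ERBB4 and DKK1, 2 times in CLEC11A and 3 times in CXCL12 and TGFA, and 42.6% of all upstream sequences held it. TATAAA was present in DKK1 alone of the 6, against 10.7% of all sequences, and TGANTCA in none, against 6.57%. RefSeq upstream sequences were matched for 9 of the 10 genes.

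The lines were compared first, over their controls. The covered length of a window, that is its bases under called peaks, differed between KMS34 and KMS11 controls for 9 of the 10 genes, 7 higher and 2 lower in KMS34 (limma on log2(bp + 200), adjusted p under 0.05 over all genes), against 40.8% of the 18226 protein-coding genes tested (23.3% higher and 17.5% lower). The median log2 difference was 1.23 over the 10 genes and 0.03 over all genes. At HGF, ERBB4, CXCL12, CLEC11A and PTP4A3, 5 of 10, every KMS34 control exceeded every KMS11 control, which held for 11.7% of all genes. Values were scaled by library. The all-gene median was 0.29 in the unscaled values, with 5221 genes higher and 930 lower in KMS34, against 4255 and 3182 in the scaled ones.

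**Figure D1:**
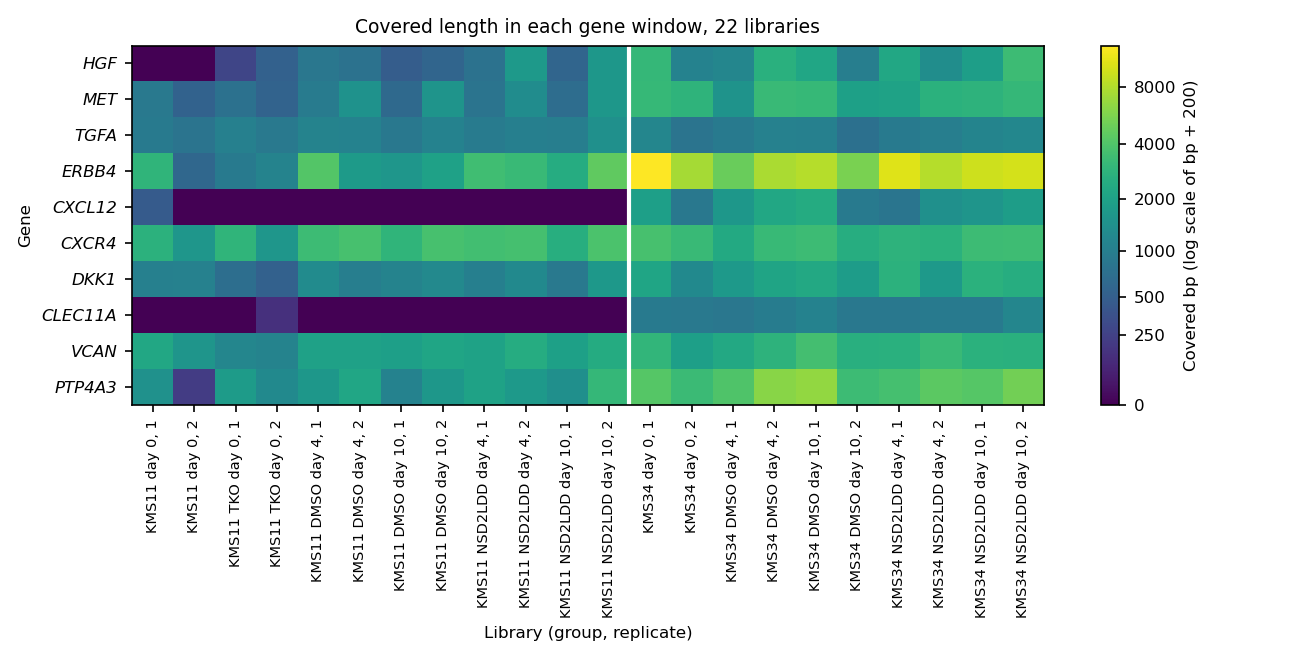
Covered length (colour, log scale of bp + 200) of each of the 10 gene windows (rows) in each of the 22 libraries (columns, KMS11 left and KMS34 right). CXCL12 and CLEC11A are at 0 bp in 11 of the 12 KMS11 libraries and covered in all 10 KMS34 libraries.

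Peak by peak, 60 of the 96 regions (62.5%) were called in KMS34 libraries only, 8 (8.33%) in KMS11 only and 28 in both. Over all regions 38.6% were called in KMS34 only and 19.6% in KMS11 only. In every KMS34 library and no KMS11 library 7 regions were called (7.29%, against 2.52% of all regions), and none showed the converse. The window of 1 long gene, ERBB4, held 31 of the 60 regions called in KMS34 only and 4 of these 7. A single library gave 29 of the 96 regions (30.2%, against 28.1% of all regions). Another 8 regions (8.33%, against 14.4%) were called in every library. Of the 67 regions tested, 26 differed between the lines, 21 higher and 5 lower in KMS34 (limma on log2(bp + 100)), against 34.3% of the 69187 regions tested (20% higher and 14.2% lower). In 14 of the 67 every KMS34 control exceeded every KMS11 control, against 8.64% of all regions. At the starts themselves, 9 of the 10 genes have a listed start window. MET, TGFA and DKK1 had a peak there in all 22 libraries (49.8% of 15812 genes did), HGF and ERBB4 in every KMS34 and no KMS11 library (1.18%), CXCL12 in 9 KMS34 libraries, CXCR4 in all 10 KMS34 and 9 KMS11 libraries, and CLEC11A and VCAN in none (33%). A region called in 1 line only passed the filter of 2 libraries through that line, so its p-value describes the separation of these libraries and the bp values carry the comparison. The CXCL12 and CLEC11A windows, each covered in 1 KMS11 library, also passed the filter through KMS34, and the same limit holds for their p-values.

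HGF, the ligand of MET (chr7:81699010-81770047, minus strand), had no called peak in its window in either KMS11 day 0 library. Its covered length was 281 and 541 bp in TKO, 854 and 779 bp in KMS11 DMSO at day 4, and 484 and 586 bp at day 10. In KMS34 it was 3075 and 1074 bp at day 0, 1164 and 2645 bp in DMSO at day 4, and 2202 and 999 bp at day 10. All 6 KMS34 controls (1860 ± 900 bp, SD) thus lay above all 6 KMS11 controls (450.5 ± 373 bp), and the log2 difference was 1.58 ± 0.25 (SE, limma adjusted p = 5.85e-05). The start itself separated the lines without overlap. The region chr7:81769112-81771272, which spans the start shown above, had 0 bp in all 12 KMS11 libraries, and in KMS34 1526, 538, 784, 1763, 1515 and 336 bp in the controls and 794, 737, 1101 and 1924 bp in NSD2LDD (adjusted p = 3.91e-07, limma, controls). A flanking region 6176 bp before the gene, chr7:81776223-81777263, was called in 4 KMS11 and 8 KMS34 libraries. Past the far end of the gene, 3 regions inside the noncoding gene LOC100128317, chosen after their values were seen, did not share 1 direction. The region chr7:81688808-81689659 was called in 8 KMS11 libraries and no KMS34 library, chr7:81684845-81685461 in 7 KMS11 and 9 KMS34 libraries (124 ± 143 and 296 ± 149 bp in controls, SD, n = 6 each), and chr7:81690314-81690534 in 1 KMS34 library. With 50 kb on either side, the HGF difference between lines was -0.19.

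MET (chr7:116672196-116798377, plus strand) was open at its start in every library. The start region chr7:116671691-116672669, which also overlaps the noncoding gene COMETT, covered 543 to 961 bp in KMS11 and 764 to 907 bp in KMS34. The authors' -log10 q of its strongest peak ran from 9.76 to 97.7 (median 61.2) in KMS11 and from 104 to 301 (median 160) in KMS34. These are values within lists of different length, from which no difference between the lines is read. The whole window was covered over 547, 918 and 1540 bp (lowest, median and highest) in KMS11 controls and 1529, 2975 and 3217 bp in KMS34 controls. The groups overlapped by 1 library on each side, and the log2 difference was 1.00 ± 0.15 (SE, limma adjusted p = 3.05e-05). Of its 11 regions, 8 were called in KMS34 only and none in KMS11 only, against 38.6% and 19.6% of all regions. A single library gave 4 of the 11. One of the 8, 4439 bp past the gene (chr7:116802816-116803277), was called in 9 of 10 KMS34 libraries at 199 to 393 bp and in no KMS11 library. Its call (limma adjusted p = 1.68e-04) was lost with lists of equal length. The others of the 8 were called in at most 3 KMS34 libraries each. An intragenic region 114324 bp from the start (chr7:116786520-116787500, chosen after its values were seen) had 243 and 286 bp in 1 DMSO and 1 NSD2LDD library of KMS11, and 500 to 971 bp in every KMS34 library.

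ERBB4 (chr2:211375717-212538802, minus strand), the receptor for neuregulins and some EGF family ligands, is the longest of the 10 genes at 1163 kb, and its window held 43 of the 96 regions. Covered length was 607, 1899 and 4096 bp (lowest, median and highest) in the 6 KMS11 controls and 4862, 7452 and 13057 bp in the 6 KMS34 controls, with no overlap (log2 difference 1.59 ± 0.22 SE, limma adjusted p = 1.53e-05). Of the 43 regions, 31 were called in KMS34 only and 2 in KMS11 only, against 38.6% and 19.6% of all regions, and 10 in both. A single library gave 13 of the 43. The region that spans the start, chr2:212537330-212539446, had 0 bp in all 12 KMS11 libraries. In KMS34 it had 1998, 1740, 1449, 1658, 1888 and 1597 bp in the controls and 1729, 1507, 1928 and 1998 bp in NSD2LDD (limma adjusted p = 6.10e-10, controls). It was among the strong peaks of the KMS34 lists, with an authors' fold enrichment of 6.36 to 13.4 (median 10.6) and a median of 13.2% of the list stronger.

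Other ERBB4 regions within the gene body followed the start. Regions at chr2:212052129-212053053 (579 to 863 bp) and chr2:211665111-211665765 (341 to 538 bp) were called in 10 of 10 KMS34 and 0 of 12 KMS11 libraries (limma adjusted p = 1.80e-08 and 2.45e-07, controls). The region chr2:212028141-212029385 was called in all 10 KMS34 libraries at 259 to 1123 bp and in 1 KMS11 library, in NSD2LDD at day 4, at 205 bp (limma adjusted p = 4.34e-06), a call lost with lists of equal length. Some ERBB4 regions went the other way. The region chr2:211836220-211836718 was called in 5 of 6 KMS11 and 1 of 6 KMS34 controls, and chr2:211946752-211947429 in 6 KMS11 and 2 KMS34 libraries (both chosen after their values were seen), and the 2 regions called in KMS11 only lay in 3 libraries and 1 library. At chr2:211610929-211611863, 926939 bp from the start and called in all 22 libraries, KMS34 controls covered 364 to 732 bp and KMS11 controls 433 to 902 bp, overlapping, with a log2 difference of -0.50 ± 0.16 (SE, limma adjusted p = 0.0265). That call was lost in 6 of the 22 fits that left out 1 library, where the difference ran from -0.63 to -0.38.

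**Figure D2:**
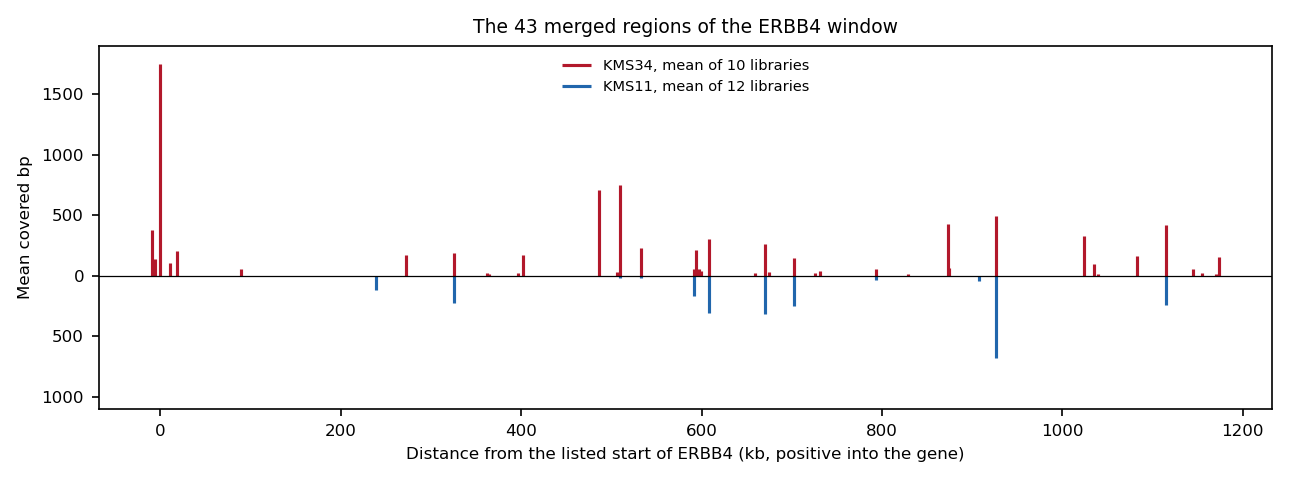
The 43 regions of the ERBB4 window by distance from the listed start (kb, horizontal) with the mean covered length of the 10 KMS34 libraries drawn upwards and of the 12 KMS11 libraries downwards (bp, vertical). The start region reaches 1749 bp on average in KMS34 and 0 bp in KMS11.

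TGFA, a ligand of the EGF receptor (chr2:70447284-70553826, minus strand), had most of its coverage at the start in both lines. Its start region chr2:70553330-70554665 was called in all 22 libraries, at 812 to 1160 bp in KMS11 and 745 to 1188 bp in KMS34, and the 2 other regions were each called in 1 KMS11 library. Window coverage was 812, 1001 and 1096 bp (lowest, median and highest) in KMS11 controls and 745, 983 and 1172 bp in KMS34 controls, which overlapped throughout. After scaling the log2 difference was -0.29 ± 0.10 (SE, limma adjusted p = 0.0314). The TGFA call was lost without scaling, where the difference was -0.033, with lists of equal length (-0.16) and in 6 of the 22 fits without 1 library, and with the gene body alone the difference was 0.14.

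CXCL12 (chr10:44370165-44385097, minus strand) had called peaks in every KMS34 library and in 1 KMS11 library. That library, the first of KMS11 day 0, had 469 bp, and the other 11 had 0 bp. In KMS34 the values were 1917 and 880 bp at day 0, 1648, 2285, 2423 and 932 bp in DMSO, and 813, 1446, 1575 and 1855 bp in NSD2LDD. The groups did not overlap, and the log2 difference between controls was 2.60 ± 0.23 (SE, limma adjusted p = 8.68e-08). With every list shortened to its 24979 strongest peaks the CXCL12 difference was 0.77 and no longer called. The KMS34 coverage lay mostly at the start, where chr10:44383851-44385469 had 392 to 1494 bp in KMS34 and 0 bp in KMS11 (limma adjusted p = 3.33e-08), a call that lists of equal length also ended. These were weaker peaks than at ERBB4, with an authors' fold enrichment of 4.04 to 6.79 (median 5.18) and a median of 64.5% of the list stronger.

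CXCR4, the CXCL12 receptor (chr2:136114349-136118149, minus strand), was open in both lines. Window coverage was 1601, 3128 and 3715 bp in KMS11 controls and 2355, 3202 and 3719 bp in KMS34 controls (lowest, median and highest), largely overlapping, with a log2 difference of -0.21 ± 0.079 (SE, limma adjusted p = 0.0435). This call was lost in 11 of the 22 fits without 1 library, and the CXCR4 difference turned to 0.053 without scaling and 0.20 with 5 kb either side. Within the window, 2 regions moved in opposite directions. The start region chr2:136116199-136118625 covered 667 to 1888 bp in KMS11 controls and 1556 to 2411 bp in KMS34 controls (0.27 ± 0.097, adjusted p = 0.0427, limma, lost in 14 of the 22 fits). The region chr2:136107279-136108132, 6217 bp past the gene, was called in 9 of 12 KMS11 libraries at 351 to 826 bp and in no KMS34 library (limma adjusted p = 0.00159), a call lost with equal lists or only peaks with -log10 q of 5 or more. A region 17736 bp before the gene, chr2:136135885-136137442, was called in all 22 libraries at 498 to 1317 bp.

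DKK1 (chr10:52314281-52317657, plus strand; its window also reaches PRKG1) was open at its start in every library. The start region chr10:52313237-52315310 covered 1004 to 1243 bp in KMS11 controls and 1262 to 1903 bp in KMS34 controls, without overlap (log2 difference 0.36 ± 0.085 SE, limma adjusted p = 0.00408). Over the window, 1004, 1086 and 1322 bp were covered in KMS11 controls and 1262, 1969 and 2305 bp in KMS34 controls (lowest, median and highest), so 1 KMS34 library fell within the KMS11 range. The log2 difference was 0.38 ± 0.15 (SE, adjusted p = 0.0464, limma). That call was lost in 14 of the 22 fits without 1 library, and at day 0 only neither the window nor the start region was called.

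CLEC11A (chr19:50723364-50725708, plus strand; its window also reaches SHANK1) was covered in every KMS34 library. Its window had 0 bp in 11 of 12 KMS11 libraries and 157 bp in the second TKO library. In KMS34 it had 928 and 887 bp at day 0, 861, 960, 1080 and 873 bp in DMSO, and 871, 904, 904 and 1162 bp in NSD2LDD (limma adjusted p = 3.68e-07, controls). Nearly all of this lay in 1 region inside the gene, chr19:50724368-50725447, which begins 1004 bp past the listed start and was called in 10 of 10 KMS34 and 0 of 12 KMS11 libraries (adjusted p = 5.08e-09). The authors' fold enrichment of its strongest peak was 7.73 to 13.0 (median 10.0). No library of either line had a peak at the start window whose sequence is shown above.

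**Figure D3:**
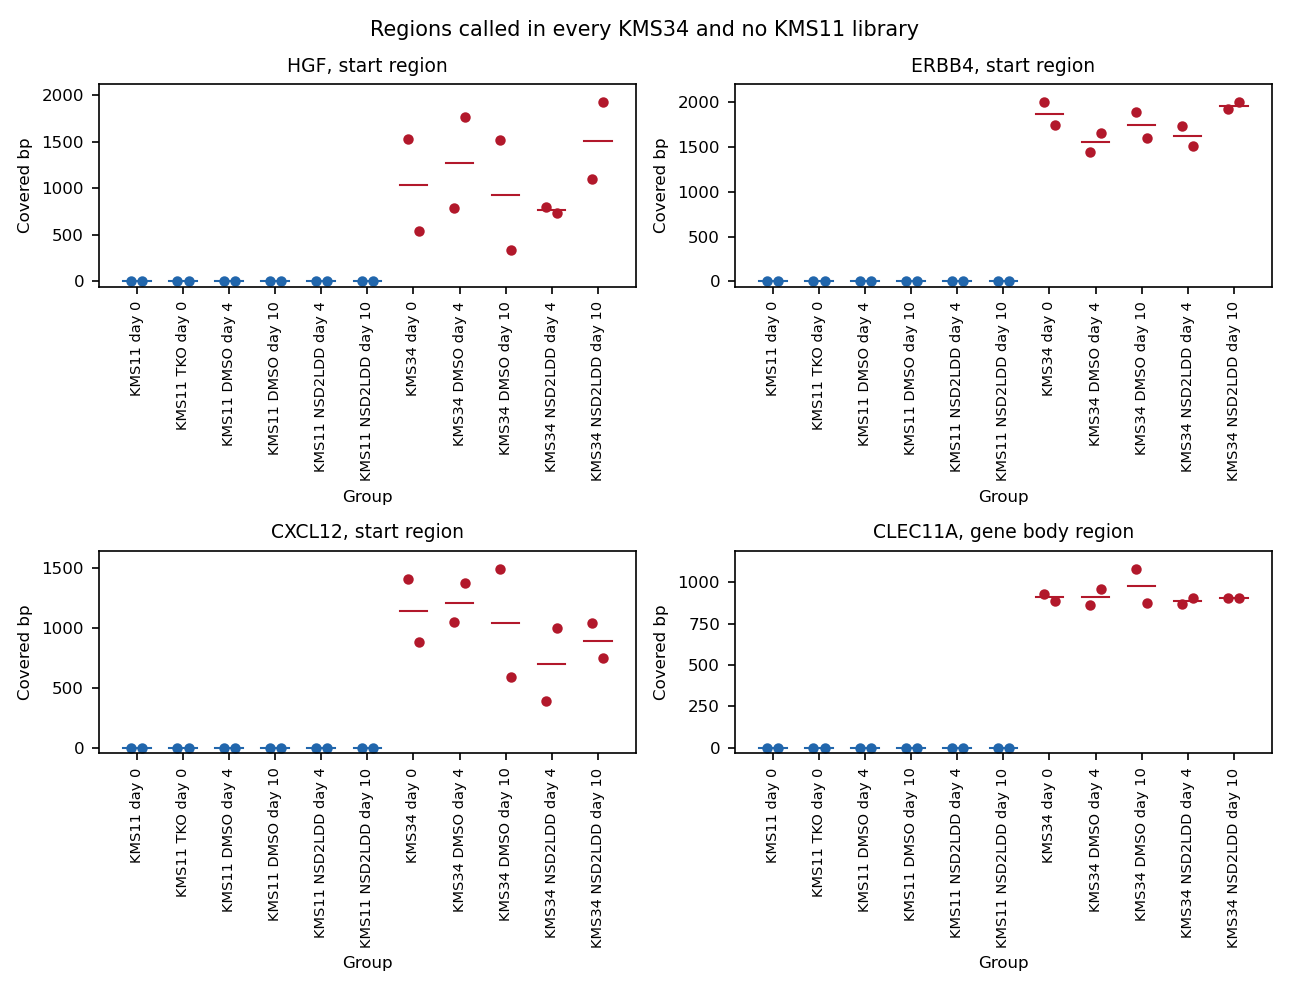
Covered length (bp, vertical) of the start regions of HGF, ERBB4 and CXCL12 and of the gene body region of CLEC11A in the 11 groups (horizontal). Dots are libraries and bars group means. All 12 KMS11 libraries are at 0 bp in each panel, and the 10 KMS34 libraries lie at 336 to 1924 bp for HGF, 1449 to 1998 bp for ERBB4, 392 to 1494 bp for CXCL12 and 861 to 1080 bp for CLEC11A.

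VCAN, which encodes the matrix proteoglycan versican (chr5:83471744-83582302, plus strand), was the 1 gene of the 10 not called between the lines. Window coverage was 1577, 2015 and 2263 bp in KMS11 controls and 1931, 2722 and 3611 bp in KMS34 controls (lowest, median and highest), overlapping, and the scaled log2 difference was 0.13 ± 0.090 (SE, limma adjusted p = 0.255). Its main region, chr5:83472482-83474791, begins 738 bp past the start and was called in all 22 libraries, at 1101 to 2141 bp in KMS11 and 1668 to 2283 bp in KMS34. Of its 8 regions, 6 were called in KMS34 only, against 38.6% of all regions. Each of these was called in 1 to 6 of the 10 KMS34 libraries.

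PTP4A3 (chr8:141392021-141432454), which encodes the phosphatase PRL-3, was covered in every library and more so in KMS34. The values were 220, 1553 and 2187 bp in KMS11 controls and 3300, 4074 and 6472 bp in KMS34 controls (lowest, median and highest), without overlap (log2 difference 1.46 ± 0.17 SE, limma adjusted p = 2.80e-06). The region across the gene's lower-coordinate end, chr8:141391416-141393015, which also overlaps the gene ASTILCS, covered 220 to 777 bp in KMS11 controls and 1065 to 1564 bp in KMS34 controls (1.11 ± 0.097, adjusted p = 2.63e-07, limma). It was called in all 22 libraries. A region inside the gene, chr8:141415845-141419391 (chosen after its values were seen), covered 0 to 1306 bp in KMS11 controls and 1470 to 3487 bp in KMS34 controls. The lowest PTP4A3 window value, 220 bp, was that of the shortest list.

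**Figure D4:**
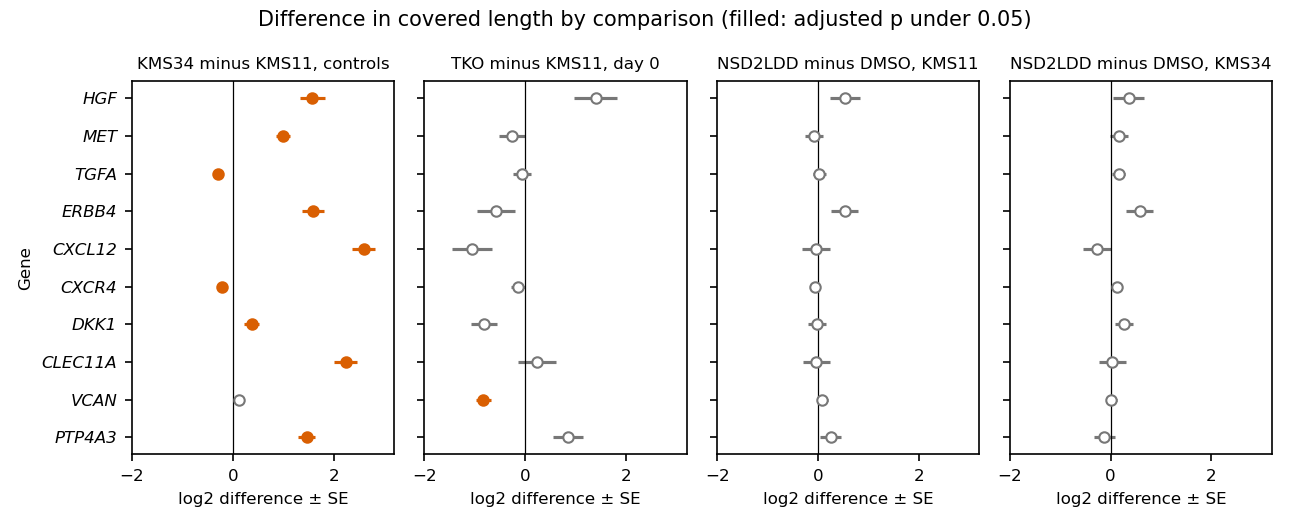
Scaled log2 difference in covered length (horizontal, with its standard error) of the 10 genes (vertical) in 4 comparisons. Filled points passed an adjusted p of 0.05 in limma: 9 of 10 between the lines, 1 of 10 (VCAN) in TKO and none under NSD2LDD. Points are also drawn where a group had no called peak, such as CLEC11A between the lines and HGF in TKO.

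The TKO libraries were compared with KMS11 at day 0, 2 libraries against 2, and 1 of the 10 genes was called, lower in TKO, against 5.4% of all genes (3.87% lower, limma). VCAN fell, from 2263 and 1577 bp at day 0 to 1172 and 1101 bp in TKO, with a log2 difference of -0.83 ± 0.16 (SE, limma adjusted p = 0.0028). Without the first TKO library the VCAN difference was -0.66 and no longer called, and without scaling it was -0.65 and not called either. The other KMS11 libraries, in DMSO and in NSD2LDD, covered 1939 to 2464 bp, all above both TKO libraries. These bp are unscaled, and the lists differed in length. TKO had 30699 and 26887 peaks, KMS11 in DMSO 34115 to 39002 and in NSD2LDD 35388 to 37695. The median log2 difference of the 10 genes was -0.20, against -0.04 over all genes. An unadjusted p under 0.05 (limma) was reached by 5 of the 10, against 3181 of the 18226 genes tested.

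At the level of single regions, 3 of 67 differed in TKO, 2 lower and 1 higher, against 4.07% of all regions tested (3.1% lower and 0.967% higher, limma). The VCAN region just past the start, chr5:83472482-83474791, fell from 1984 and 1577 bp to 1172 and 1101 bp (-0.74 ± 0.11 SE, adjusted p = 4.77e-04, limma). The DKK1 start region chr10:52313237-52315310 fell from 1048 and 1070 bp to 705 and 530 bp (-0.84 ± 0.15 SE, adjusted p = 0.00251, limma). These TKO values were also below the 1004 to 1243 bp of the 4 DMSO libraries of KMS11, in unscaled bp and with longer lists in DMSO. The PTP4A3 region chr8:141391416-141393015 rose from 375 and 220 bp to 748 and 745 bp (0.98 ± 0.17 SE, adjusted p = 0.00223, limma), but KMS11 in DMSO reached 496 to 777 bp. With lists of equal length the difference of this PTP4A3 region turned to -0.56. Without scaling the calls of the VCAN region (-0.60) and the DKK1 region (-0.70) were lost. With coverage under 50% of a region set to 0 bp, none of the 3 was called. No KMS11 library covered 50% of the PTP4A3 region, so no call was possible there. In that setting both TKO libraries were at 0 bp at the DKK1 region and the second TKO library at the VCAN region, while both day 0 libraries kept their values. The lost calls there thus do not show smaller falls.

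**Figure D5:**
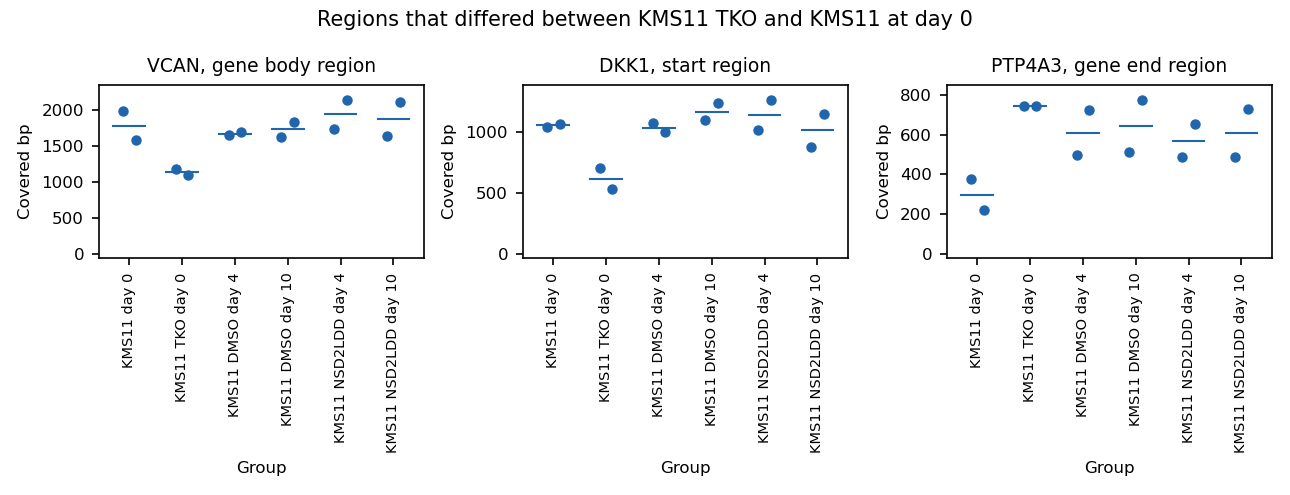
Covered length (bp, vertical) of the VCAN gene body region, the DKK1 start region and the PTP4A3 gene end region in the 6 KMS11 groups (horizontal). Dots are libraries and bars group means. Both TKO libraries lie below both day 0 libraries at VCAN and DKK1 and above them at PTP4A3. TKO lay wholly below day 0 in 3 of 67 regions of the gene windows, against 4574 of all 69187 regions tested. TKO lay wholly above day 0 in 3 of 67, against 5945 of 69187.

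The remaining window values in TKO did not pass the test. DKK1 had 1048 and 1070 bp at day 0 and 705 and 530 bp in TKO, a log2 difference of -0.82 ± 0.25 (SE, limma adjusted p = 0.071). It ran from -1.12 without the first KMS11 day 0 library, where it was called, to -0.52 without the second. HGF had 0 and 0 bp at day 0 and 281 and 541 bp in TKO (adjusted p = 0.0693, limma), but its start region stayed at 0 bp. PTP4A3 had 1463 and 220 bp at day 0 and 1793 and 1266 bp in TKO (0.85 ± 0.30 SE, adjusted p = 0.121, limma), a difference of 0.14 without the second day 0 library and of 1.55 without the first, where it was called. CXCL12 was at 0 bp in both TKO libraries and CLEC11A in 1 of them. ERBB4 covered 2914 and 607 bp at day 0 and 903 and 1099 bp in TKO, where the groups overlapped.

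Under NSD2LDD none of the 10 genes was called in either line. In KMS11 (4 NSD2LDD against 4 DMSO libraries over days 4 and 10), 0 of 10 passed limma's adjusted test, against 0.011% of all genes. An unadjusted p under 0.05 was reached by 0 of 10, against 702 of the 18226 genes. CXCL12 and CLEC11A had 0 bp in all 4 NSD2LDD and all 4 DMSO libraries of KMS11, so their test could show no change. In KMS34 0 of 10 passed, against 0.0165% of all genes, and 1 had an unadjusted p under 0.05, against 1199 of 18226. Without trend and robust estimation limma also called 0 in both lines. Log2 differences ran from -0.07 to 0.53 in KMS11 and from -0.27 to 0.58 in KMS34. The difference between the lines in the response was called for 0 of 10 genes (0% of all genes). An unadjusted p under 0.05 was reached by 0 of 10, against 618 of 18226.

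The largest log2 difference in KMS34 was that of ERBB4. Its window covered 4862, 7572, 8163 and 5525 bp in DMSO (6531 ± 1586, SD, n = 4) and 10647, 8136, 9463 and 9987 bp in NSD2LDD (9558 ± 1065, n = 4), which overlapped by 1 library, with a log2 difference of 0.58 ± 0.27 (SE, limma adjusted p = 0.753). The KMS34 day 0 libraries had 13057 and 7331 bp. In KMS11 ERBB4 covered 4096, 1775, 1610 and 2022 bp in DMSO and 3486, 3208, 2501 and 4583 bp in NSD2LDD, again overlapping. HGF covered 854, 779, 484 and 586 bp in KMS11 DMSO and 778, 1695, 581 and 1635 bp in NSD2LDD, where both second libraries exceeded all DMSO libraries and both first libraries did not. In KMS34 HGF covered 1164, 2645, 2202 and 999 bp in DMSO and 2265, 1356, 1905 and 3358 bp in NSD2LDD.

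The 4 regions that marked the KMS34 starts and CLEC11A had the same calls with and without the degrader. The HGF, ERBB4 and CXCL12 start regions and the CLEC11A region had 0 bp in all 4 KMS11 NSD2LDD libraries, as in DMSO, and all remained called in the 4 KMS34 NSD2LDD libraries. CXCL12 in KMS34 covered 1822 ± 683 bp in DMSO and 1422 ± 441 bp in NSD2LDD, CLEC11A 943.5 ± 101 and 960 ± 135 bp, and DKK1 1991 ± 264 and 2437 ± 493 bp (SD, n = 4 each). All 3 pairs of groups overlapped. MET covered 2463 ± 839 bp in KMS34 DMSO and 2654 ± 436 bp in NSD2LDD, and PTP4A3 4967 ± 1529 and 4357 ± 654 bp. The NSD2LDD and DMSO groups also overlapped at CXCR4, VCAN and TGFA in both lines, with CXCR4 at 3420 ± 388 and 3379 ± 549 bp in KMS11 DMSO and NSD2LDD.

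Of single regions, 0 of 67 were called under NSD2LDD in KMS11 (limma, against 0.0694% of all regions), nor was any without trend and robust estimation. An unadjusted p under 0.05 was reached there by 2 of 67, against 3321 of the 69187 regions tested. In KMS34 1 of 67 was called (limma, against 0.986%, 0.642% higher). The called region lies within ERBB4, 596918 bp from the start (chr2:211941409-211941884). It was covered over 241 and 343 bp in the KMS34 NSD2LDD libraries at day 10 and at 0 bp in all other 20 libraries. It passed the filter of 2 libraries only through the group where it was covered, so its test gives no support, and its call was lost in 17 of the 20 fits without 1 library in which it was still tested and with a filter of 1 library. In 3 regions every KMS34 NSD2LDD library exceeded every DMSO library (0.887% of all regions did so), and all 3 lay at ERBB4. They were chosen after their values were seen. In chr2:211836220-211836718 the 4 DMSO libraries had 0 bp and the NSD2LDD libraries 314, 461, 202 and 271 bp, but 1 day 0 library had 215 bp. In chr2:212520347-212520780 DMSO had 0, 254, 224 and 0 bp and NSD2LDD 419, 281, 284 and 314 bp. In chr2:212548145-212548760, 9343 bp before the gene, DMSO had 0, 344, 460 and 171 bp and NSD2LDD 510, 533, 520 and 511 bp. The response differed between the lines at 0 of 67 regions (limma, against 0.00578% of all regions). An unadjusted p under 0.05 was reached by 8 of 67, against 4141 of 69187.

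Pathway partners of the 10 genes were taken from 8 lists by role, and 99 of their 102 genes were tested. Between the lines 28 were higher and 20 lower in KMS34 (limma), 48.5% against 40.8% of all genes. In the HGF and MET list (activating proteases, inhibitors and adaptors) 5 of 12 were higher and 3 lower. In the EGF and ERBB list 3 of 14 were higher and 3 lower, in the CXCL12 list 5 of 11 and 2, in the Wnt and DKK1 list 2 of 18 and 1, and in the list of matrix genes around versican 6 of 13 and 1. The list of PRL phosphatases and STAT3 had 0 of 6 higher and 3 lower, the CLEC11A receptor list 1 of 4 higher, and the list of other niche factors 6 of 21 higher and 7 lower. DPP4, the protease that inactivates CXCL12, was at 0 bp in all 6 KMS11 controls and at 1695 to 2733 bp in the 6 KMS34 controls (adjusted p = 3.70e-09, limma). In KMS11 only the first TKO library covered it, at 450 bp. It thus passed the filter through KMS34, and the bp values carry the comparison. Lower in KMS34 were the cytokine gene IL10 (-1.92, adjusted p = 1.69e-08, limma), the IGF-1 receptor gene IGF1R (-0.76, adjusted p = 3.26e-08, limma) and CNNM3, which encodes a binding partner of PRL phosphatases (-1.11, adjusted p = 3.54e-08, limma). With the gene body alone the CNNM3 call was lost.

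In TKO, 4 of the 99 partners were higher and 4 lower than in KMS11 at day 0 (limma, 8.08% against 5.4% of all genes). The 4 lower genes included ERBB ligands. NRG3 fell from 2640 and 1814 bp to 494 and 440 bp (log2 difference -2.03, adjusted p = 3.28e-07, limma), and NRG1 from 2710 and 1449 bp to 457 and 401 bp (-1.99, adjusted p = 6.70e-07, limma). KIT, the stem cell factor receptor, went from 1035 and 729 bp to 0 bp in both TKO libraries (adjusted p = 7.84e-06, limma). HAPLN1, which links versican to hyaluronan and is a neighbour of VCAN, went from 783 and 588 bp to 0 bp in both (adjusted p = 0.00606, limma). That HAPLN1 call was lost without the second KMS11 day 0 library, without the first TKO library, and with the gene body alone. The 8 DMSO and NSD2LDD libraries of KMS11 covered 1800 to 4318 bp at NRG3, 2086 to 4334 bp at NRG1 and 851 to 1588 bp at KIT. All lay above both TKO libraries, in unscaled bp and with shorter lists in TKO. At HAPLN1 they covered 0 to 1018 bp, and 1 NSD2LDD library at day 10 was at 0 bp like TKO. Under NSD2LDD 0 of 99 partners were called in KMS11 and 0 in KMS34 (limma). In each line 6 of 99 had an unadjusted p under 0.05, against 702 of 18226 genes in KMS11 and 1199 in KMS34.

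Likeness was measured as Pearson's r of the scaled log2 covered length over the 22 libraries, which share the split into 2 lines, and is given as a description. For CLEC11A the most alike gene on another chromosome or over 1 Mb away was ITLN1 (r = 0.991), for CXCL12 LYPD5 (0.986), for PTP4A3 PTPN7 (0.968), for ERBB4 HDAC9 (0.947) and for MET ATP2B4 (0.945). For TGFA it was LRRC66 (0.931), for VCAN DENND5B (0.897), for DKK1 STXBP5L (0.883), for HGF CEACAM21 (0.881) and for CXCR4 ZNF311 (0.832). Among the 10 genes the highest r was that of CLEC11A with CXCL12 (0.932) and the lowest that of PTP4A3 with TGFA (-0.722).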

How the data were processed

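ATAC-seq peaks of 22 libraries were analysed. Per the submitters' processing notes, fastp, BWA, SAMtools, Picard, MACS3 and deepTools were used on hg38; the sources used here do not state their roles, versions, settings or any Tn5 shift. The authors deposited 1 peak list per library, with a fold enrichment (a ratio over the modelled background) and a -log10 q per peak. Both are the authors' values and were used only to describe, rank or filter peaks within a list. The smallest deposited -log10 q was 2.00.

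Regions were made by merging overlapping peaks of all libraries (22 autosomes and X). The value of a region or gene window was its length in bp under called peaks, checked against bedtools 2.31.1. Gene positions and upstream sequences came from RefSeq (GRCh38.p14). Log2 of bp plus 100 (regions) or 200 (genes), less the library median over features covered in all libraries, was fitted with limma 3.58.1 (trend and robust, R 4.3.3) as 11 group means, and Benjamini-Hochberg adjustment at 0.05 over all features covered in at least 2 libraries. The fit was tested on simulated data, where it recovered 164 of 200 genes changed by 1 log2 unit between the lines, 140 of 200 under NSD2LDD in KMS34 and 101 of 200 in TKO. It also made 12, 10 and 4 false calls, in the same order. Where a group had no called peak, no log2 difference from the main fit is given in the text.

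All 10 genes are named. Regions are named where called (at most the 6 with the smallest p per comparison), where present in all libraries, or where present in at least 5 of 6 controls of 1 line and none of the other (at most the 3 widest per gene), and partner genes where among the 4 called with the smallest p. The genes, lists and rules were chosen with earlier results of these data known. Alternatives changed the peak threshold, list length, scaling, bp added, filter, window, overlap, controls, days, estimator and samples, or left out each library.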

Additional observations from a re-analysis of the deposited data

Results flagged for a closer look

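In 60 sets of 4 to 6 libraries (each gene in the controls, DMSO or NSD2LDD of 1 line), 1 library stood apart from the others in 6. A rate of 1 in 20 would give 3. That is a rough guide only, because the controls contain the DMSO libraries and a set at 0 bp throughout cannot be flagged. In KMS11 DMSO, TGFA covered 876 bp in the first day 10 library and 1080 to 1096 bp in the others, and ERBB4 covered 4096 bp in the first day 4 library and 1610 to 2022 bp in the others. In KMS11 NSD2LDD, TGFA covered 1433 bp in the second day 10 library and 948 to 1023 bp in the others. CXCL12 covered 469 bp in the first KMS11 day 0 library and 0 bp in the other 5 KMS11 controls. In KMS34 NSD2LDD, CLEC11A covered 1162 bp in the second day 10 library and 871 to 904 bp in the others, and VCAN covered 3213 bp in the second day 4 library and 2653 to 2708 bp in the others. The log2 difference of ERBB4 under NSD2LDD in KMS11 was 0.53 with all libraries, 0.85 without the library that stood apart and 0.22 without the second DMSO library at day 4, and was called in none of these. The cause of these values was not tested.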

How the results depend on the processing

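The count of the 10 genes called under NSD2LDD was 0 in both lines and for the difference between lines under every alternative run, and the count between lines stayed within 1.5 times of 9 (6 to 9 when 1 library was left out). The other counts moved as follows, and the cause was not tested. Genes called in TKO were 3 with lists of equal length or the peak number as covariate, 0 without scaling, and 2 with quantile normalization, 50 bp added, 5 kb or 50 kb either side (1 to 3 leaving out 1 library). Regions called under NSD2LDD in KMS34 were 2 with -log10 q of 5 or more or equal lists, 3 with quantile normalization, day 10 only or windows around summits, 4 without scaling, without trend and robust or with 30 bp added, 5 with at least 50% of a region covered, and 0 with a filter of 1 or 6 libraries, a fit of 1 line or 300 bp added (0 to 4 leaving out 1 library). Regions that differed in response between lines were 1 with equal lists, 2 with summits and 3 with 50% covered. Between lines 16 regions were called with equal lists or day 0 only and 15 with 50% covered. In TKO 1 region was called without scaling or with summits, 5 with all KMS11 controls and 0 with 50% covered. In that last setting the PTP4A3 region was at 0 bp in every KMS11 library and could not be called.

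The main fit did not pair same-numbered libraries, whose deviations had correlations of -0.11 to 0.26 over genes (8 pairs of groups). The 0.26 was that of NSD2LDD and DMSO in KMS11 at day 10. There the first libraries had median peak widths of 417 and 446 bp and the second 633 and 649 bp. Whether the numbers mark a shared batch was not tested. With a replicate block, 8 genes and 26 regions were called between lines, 1 gene and 3 regions in TKO, and 0 genes and 0 regions under NSD2LDD in KMS34.

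Some differences changed sign. Between lines, HGF was -0.19 with 50 kb either side and TGFA 0.14 with the gene body alone. CXCR4 was 0.0079 with equal lists, 0.053 without scaling, 0.12 at day 0 only, 0.20 with 5 kb and 0.14 with the gene body. VCAN was -0.15 with equal lists and -0.24 at day 0 only. In TKO, HGF was -0.11 with 50 kb, and the PTP4A3 region chr8:141391416-141393015 was -0.56 with equal lists and -0.067 with 50% covered. That -0.067 compares TKO and day 0 groups that were both at 0 bp, so it shows no change of sign. Under NSD2LDD in KMS11, HGF was -0.62 with 5 kb either side and -0.62 with the gene body. In both settings the 4 NSD2LDD libraries were at 0 bp. Of the 4 DMSO libraries, 2 had a called peak, of 256 and 265 bp. These values thus rest on 2 short peaks against an empty group, and no reversal is read from them. Depth is unknown in these lists, so list length stands in its place.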
